A study of Mus musculus with 74 samples.

Results

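Ribosomal protein genes encode the protein components of the cytosolic ribosome, and the question was whether their promoters carried H3K9me3 in mouse embryos obtained by nuclear transfer of a somatic cell (SCNT). H3K9me3 is a heterochromatin mark, histone H3 with 3 methyl groups on lysine 9. The genes were taken by symbol from GENCODE M21 on mm10. They are the autosomal protein-coding genes whose symbol begins with Rpl or Rps and is followed by a digit, p or a, without pseudogenes, S6 kinases and Rps19bp1. This gave 81 of 20807 autosomal protein-coding genes, 49 of the large subunit and 32 of the small subunit, on 18 of the 19 autosomes. No measured value entered the choice.

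H3K9me3 was mapped by ultra-low-input native ChIP-seq, in which chromatin is cut with micrococcal nuclease and precipitated without crosslinking, and 1 peak list per group was made from the pooled libraries. The 10 lists come from 2 to 7 H3K9me3 libraries each, against 2 to 5 input libraries, and covered 123 to 212 Mb of the autosomes. The donor list comes from cumulus cells (CC), the somatic cells around the oocyte, of B6D2F1 females. The 8 SCNT lists come from embryos made with CC nuclei in enucleated B6D2F1 oocytes, activated with SrCl2 and cytochalasin B, at 6 h post activation (6 hpa), 14 hpa, the 2-cell, 4-cell, 8-cell and morula stages, and from blastocysts split into trophectoderm (TE) and inner cell mass (ICM). The last list comes from fertilized C57BL/6 zygotes at pronuclear stage 5 (PN5), which the study took from an earlier publication, so strain, origin of the data and type of embryo cannot be told apart in any comparison with PN5. With 1 list per group there is no replicate error and no test between groups. The labelled cell types could not be checked against expression markers, because the files hold peaks only. As a check of known targets, zinc finger (Zfp) gene bodies were covered to 14.7% in CC and to 4.98% to 10.8% in the other lists, against 3.23% to 5.27% over all genes.

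The cytosolic ribosome is built from a large and a small subunit, each made of ribosomal RNA and proteins that are needed in nearly equal amounts, and ribosomal protein genes are among the most highly transcribed genes of growing cells. Their promoters are typically CpG rich and without a TATA box, transcription starts within a run of pyrimidines, and the resulting mRNAs carry a 5′ terminal oligopyrimidine tract (TOP) through which their translation responds to mTOR. Many of the introns hold small nucleolar RNAs (snoRNAs), and the mRNAs gave rise to a large number of processed pseudogenes.

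A promoter was the 2000 bp centred on the gene's annotated 5′ end. A promoter was called marked if 50% or more of its bases fell in 1 peak, or if a peak lay inside it with 50% or more of its own length. Of the 81 promoters, 73 (90.1%) were of the high-CpG class, against 49.9% of all promoters. The median gene was 3368 bp long, 28 genes hold an annotated snoRNA, and 16 share a divergent promoter with a neighbour whose 5′ end lies within 1000 bp.

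RefSeq promoter windows on GRCm38.p6 (mm10) were matched for 61 of the 81 genes. The 100 bases around the RefSeq start are printed for 4 members whose promoter was marked in 2-cell embryos and 3 members that no peak of any list touched, so that the kind of sequence behind both outcomes can be read. Capitals mark the longest run of C and T within 20 bases of the start, which follows base 80 of each line. Rps19 and Rps15 were chosen for printing after their values were seen, as were the untouched members.
Rplp0 (chr5:115559387-115559486, plus strand, marked at 2-cell): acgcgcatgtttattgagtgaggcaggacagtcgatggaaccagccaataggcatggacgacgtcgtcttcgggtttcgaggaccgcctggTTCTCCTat
Rpl13 (chr8:123102270-123102369, plus strand, marked at 6 hpa and 2-cell): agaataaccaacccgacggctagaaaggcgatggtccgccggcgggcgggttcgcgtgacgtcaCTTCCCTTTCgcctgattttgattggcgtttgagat
Rps19 (chr7:24884512-24884611, plus strand, marked at 2-cell): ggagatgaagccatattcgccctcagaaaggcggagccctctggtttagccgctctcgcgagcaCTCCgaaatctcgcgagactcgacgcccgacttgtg
Rps15 (chr10:80292351-80292450, plus strand, marked at 2-cell): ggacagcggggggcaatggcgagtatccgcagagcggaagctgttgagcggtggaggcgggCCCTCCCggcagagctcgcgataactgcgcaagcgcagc
Rpl24 (chr16:55966195-55966294, plus strand, never touched): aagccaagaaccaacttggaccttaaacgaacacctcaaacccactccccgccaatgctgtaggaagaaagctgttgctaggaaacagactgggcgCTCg
Rpl34 (chr3:130730379-130730478, minus strand, never touched): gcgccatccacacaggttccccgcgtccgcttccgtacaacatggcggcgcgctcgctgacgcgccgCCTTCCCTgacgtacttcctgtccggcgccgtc
Rps7 (chr12:28635934-28636033, minus strand, never touched): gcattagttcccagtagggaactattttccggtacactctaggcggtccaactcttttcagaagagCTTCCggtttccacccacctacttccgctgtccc
The longest such run was 10 bases in Rpl13, 8 in Rpl34, 7 in Rplp0 and in Rps15, 5 in Rps7, 4 in Rps19 and 3 in Rpl24. Marked and untouched members thus both had longer and shorter runs.

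The windows from 250 bases before to 50 after the RefSeq start were searched on both strands for 5 motifs, none of which contains another. CCGGAAG, the core bound by GABP and other ETS factors, was present in 24 of the 61 members (39.3%), against 12.6% of 15703 windows. AANATGGC, the YY1 core, was present in 11 (18.0%), against 6.70%. GGGCGG (SP1) was found in 59.0% against 48.8%, CACGTG (MYC and MAX) in 8.20% against 8.11%, and TATAAA in 6.56% against 12.9%. The longest pyrimidine run had a median of 7 bases in members and 5 bases over all windows. Among the 12 members marked at 2-cell that have a window, CCGGAAG was present in 2 (16.7%), and among the other 49 in 22 (44.9%). AANATGGC was present in 3 (25.0%) and 8 (16.3%) of the same sets. For marks at 6 hpa both orders were the opposite, with CCGGAAG in 8 of 15 marked members (53.3%) and 16 of the other 46 (34.8%), and AANATGGC in 0 of 15 and 11 of 46 (23.9%). These are descriptions of letters in a window and not of bound factors.

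By raw share, ribosomal protein promoters were marked most often at 6 hpa (27.2%) and in 2-cell embryos (22.2%), and to at most 7.41% in the other lists. Only at 2-cell and in TE did their share exceed that of all promoters. In CC, 4 of the 81 promoters were marked (4.94%, Wilson 95% interval 1.94% to 12%), against 7.83% of all promoters. At 6 hpa 22 were marked (27.2%, 18.7% to 37.7%), against 29.9% of all promoters, a share near the background. At 14 hpa the count was 5 (6.17%, 2.67% to 13.6%), against 8.58%. Within the high-CpG class the shares of members and of all promoters were 5.48% and 4.10% in CC, and 4.11% and 6.48% at 14 hpa. The intervals cover counting error over promoters only, and promoters are not replicates.

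The 2-cell list was the one in which the members stood furthest above the background. There 18 of the 81 promoters were marked (22.2%, 14.5% to 32.4%), against 6.39% of all promoters, which is a ratio of 3.48. Within the high-CpG class the shares were 23.3% of members and 4.63% of all promoters, a ratio of 5.03. At 6 hpa the order within that class was the opposite, with 27.4% of members and 41.1% of all high-CpG promoters. The 2-cell list was also the shortest of the 10, with 123 Mb covered, and its group has 6 H3K9me3 libraries and 2 input libraries, a balance that no other group has. The part of these in the count was not tested.

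From the 4-cell stage on few members were marked. At the 4-cell stage 2 were marked (2.47%, 0.680% to 8.56%), against 6.10% of all promoters. In 8-cell embryos and in morulae 1 was marked (1.23%, 0.218% to 6.67%), against 6.80% and 5.11%. In ICM 0 of 81 promoters were marked (0% to 4.53%, with 3 counts at 3.70%), against 4.00% of all promoters, a share within that interval. In TE 6 were marked (7.41%, 3.44% to 15.2%), against 4.13%. PN5 also had 6 (7.41%, 3.44% to 15.2%), against 9.25%. ICM and TE thus had 0 and 6 marked members, and the intervals of the 2 shares overlap. Within the high-CpG class the shares of members and of all promoters were 2.74% and 1.69% (4-cell), 1.37% and 1.04% (8-cell), and 1.37% and 0.713% (morula). They were 0% and 1.56% in ICM, 6.85% and 1.99% in TE, and 6.85% and 7.79% in PN5. In CC, 4-cell, 8-cell and morula the members thus lay below all promoters but not below their class.

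**Figure D1:**
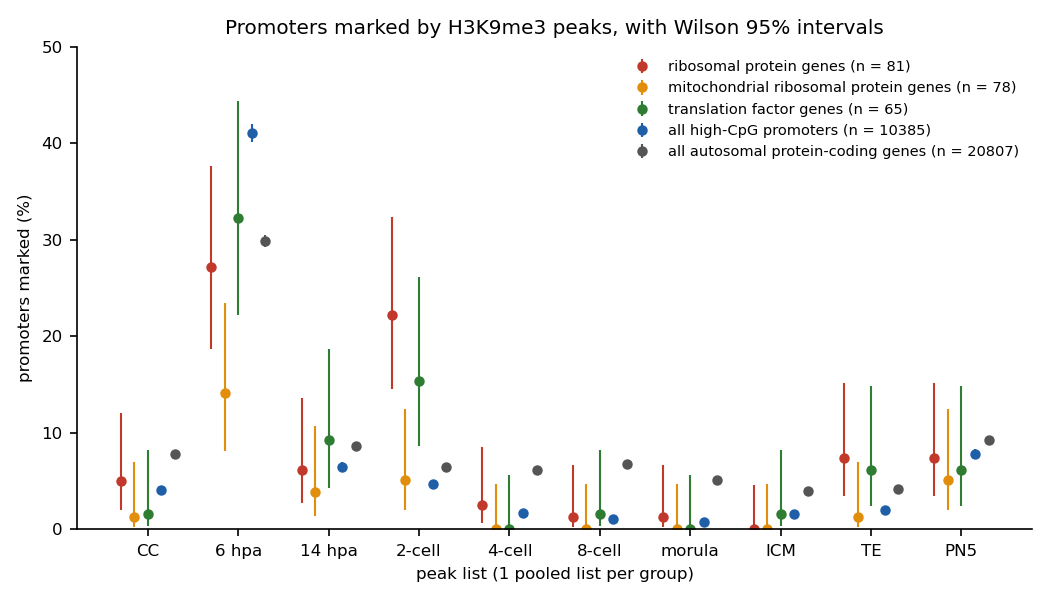
Percent of promoters marked by H3K9me3 peaks (y axis) in each of the 10 peak lists (x axis), for the 81 ribosomal protein genes, 78 mitochondrial ribosomal protein genes, 65 translation factor genes, all high-CpG promoters and all autosomal protein-coding genes, with points for the share and lines for the Wilson 95% interval. At 2-cell the ribosomal protein genes lie at 22.2%, above 4.63% of all high-CpG promoters, whereas at 6 hpa they lie at 27.2%, below 41.1%.

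Between CC and 6 hpa, 19 members gained a mark (23.5%), against 25.4% of all promoters, so the gain was near the background. Marks were kept at 3 members, Rpl10l, Rps29 and Rps3a1 (3.70%, against 4.50%), and lost at 1, Rpl4 (1.23%, against 3.33%). Of the promoters marked at 6 hpa, 5 were marked at 14 hpa as well (Rpl10l, Rpl39l, Rpl8, Rps27rt and Rps29, against 5.73% of all promoters). Those marked both at 14 hpa and in PN5 were Rps27rt and Rps29 (2 members, against 2.82%).

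Of the 18 members marked at 2-cell, 8 were also marked at 6 hpa, and 10 were marked in none of CC, 6 hpa and 14 hpa. Of the 1330 promoters of all genes marked at 2-cell, the counts were 857 and 310. Both at 6 hpa and at 2-cell 8 were marked (9.88%, against 4.12% of all promoters), namely Rpl10l, Rpl13, Rpl8, Rplp1, Rps27rt, Rps29, Rps3a1 and Rpsa. At 2-cell but not at 14 hpa 14 were marked (17.3%, against 3.08%). At 2-cell and in none of CC, 6 hpa and 14 hpa 10 were marked (12.3%, against 1.49%), among them Rpl13a, Rpl28, Rplp0, Rps12, Rps15, Rps19, Rps20 and Rps23. Only Rpl10l and Rpl8 were marked both at 2-cell and at 4-cell (2.47%, against 3.14%). These shares use the same lists as the counts per list and are not independent of them.

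Across the 10 lists, 44 members were marked in none (54.3%, against 55.8% of all promoters) and 26 in 1 (32.1%, against 27.2%). Of the 26, 12 were marked at 6 hpa alone (14.8% of members, against 18.2% of all promoters) and 9 at 2-cell alone (11.1%, against 0.836%). Marks in 4 or more lists were found at 5 members, Rps29 (8 lists), Rpl10l (6) and Rps3a1, Rps27rt and Rpl8 (4 each), a share of 6.17% against 6.25% of all promoters. The promoter alone was free of any peak base in every list for 42 members (51.9%), against 51.3% of all genes. Promoter and body together were free of any peak base in every list for 31 members (38.3%), against 14.8% of all genes. Members and all genes were not matched for gene length, and its part in the latter contrast was not tested. Among the 31 members were Rplp2, Rpl5, Rpl6, Rpl9, Rpl23, Rps9 and Rps16, chosen here after their values were seen.

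**Figure D2:**
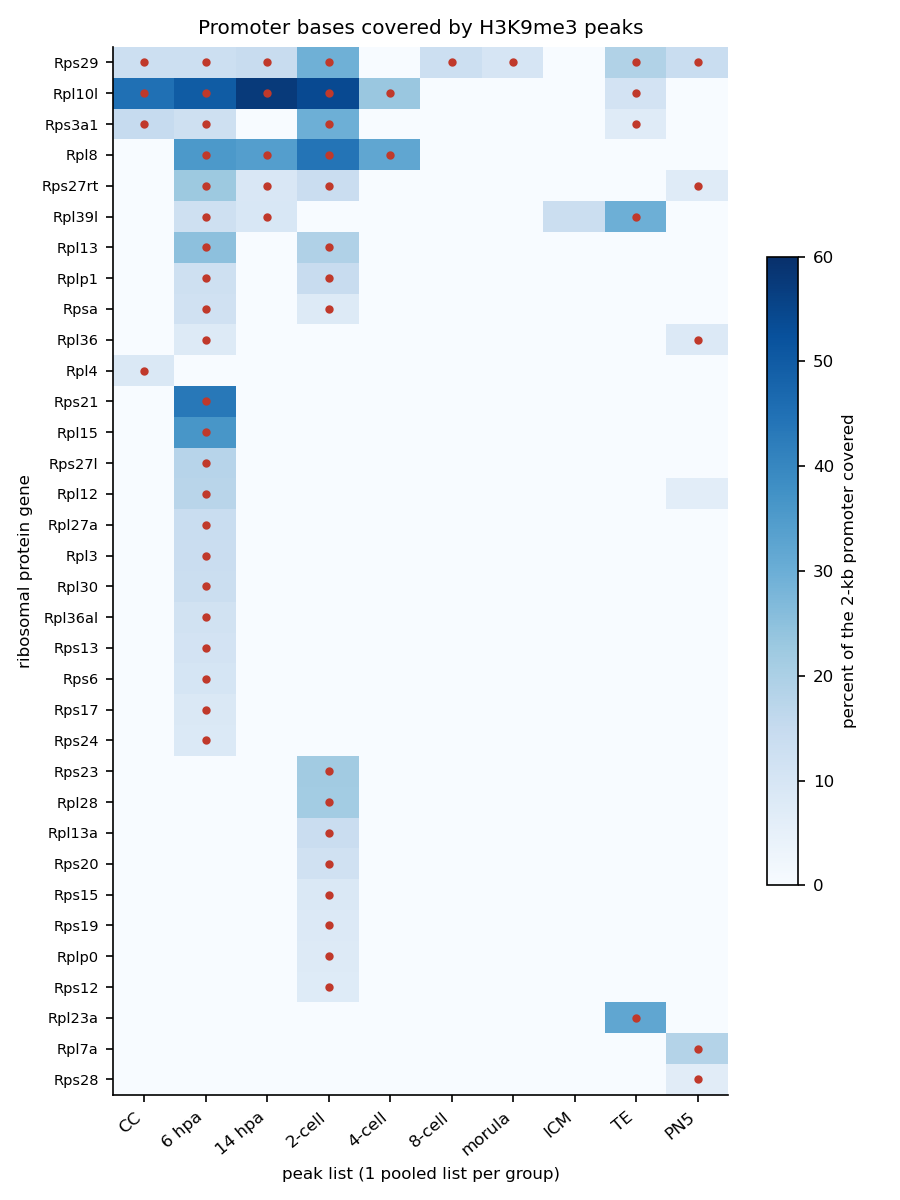
Percent of the 2000-bp promoter covered by peaks (colour) for 34 of the 37 members marked in at least 1 list (rows) in each of the 10 lists (columns), with red dots where the promoter was marked. Rps29 has dots in 8 lists and Rpl10l in 6, while 12 of the members shown have a dot at 6 hpa alone and 8 at 2-cell alone.

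Among large-subunit genes, 12 of 49 were marked at 6 hpa (24.5%) and 7 at 2-cell (14.3%, 7.10% to 26.7%). Among small-subunit genes, 10 of 32 were marked at 6 hpa (31.2%) and 11 at 2-cell (34.4%, 20.4% to 51.7%). The intervals of the 2 subunits overlap at 2-cell. None of the 16 members with a divergent promoter was marked at 2-cell, against 18 of the other 65 (27.7%), whereas at 6 hpa 5 of the 16 (31.2%) and 17 of the 65 (26.2%) were. Of the 28 hosts of snoRNAs 7 were marked at 2-cell (25.0%), and of the other 53 members 11 (20.8%). Over all promoters 6.39% were marked at 2-cell and 29.9% at 6 hpa. Shares of all genes with divergent promoters or snoRNAs are not given here, so these splits describe the members only. The median gene length was 2327 bp for members marked at 2-cell and 3569 bp for the others, and the median CpG ratio 0.730 and 0.672.

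Rpl8 encodes a large-subunit protein close to the peptidyl transferase centre. Its promoter (gene on chromosome 15) was covered to 35.4% at 6 hpa, 34.0% at 14 hpa, 44.1% at 2-cell and 31.9% at 4-cell, and to 0% in CC, 8-cell, morula, ICM, TE and PN5. It was thus the single member with introns that was covered without a break from 6 hpa to 4-cell. The peak lay inside the gene, from 224 to 931 bp after the 5′ end at 6 hpa (fold 2.90, −log10 q 3.81) and from 79 to 961 bp at 2-cell (fold 3.44, −log10 q 5.30). Of the gene body, 50.1% was covered at 6 hpa, 47.3% at 14 hpa, 39.5% at 2-cell and 28.6% at 4-cell.

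Rpl13 and Rpl13a are large-subunit genes that host snoRNAs. The Rpl13 promoter was covered to 24.9% at 6 hpa and 19.1% at 2-cell and to 0% in the other 8 lists. The Rpl13a promoter was covered to 13.8% at 2-cell alone. Rpl28 reached 21.4% at 2-cell alone, by a peak from 169 to 597 bp after the 5′ end (fold 3.01, −log10 q 2.19). None of these 3 promoters had a peak base in CC or PN5. At 6 hpa the highest values of large-subunit genes other than Rpl10l, Rpl8 and Rpl13 were 36.1% for Rpl15, 17.4% for Rpl12, which sits at the base of the ribosomal stalk, 13.9% for Rpl27a and 13.7% for Rpl3. Each of these 4 promoters was marked at 6 hpa alone. The Rpl3 peak overlaps an annotated transcript of the neighbouring gene Syngr1, and the Rpl15 peak that of Nkiras1.

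The stalk of the large subunit, through which translation factors are recruited, is formed by Rplp0, Rplp1 and Rplp2. Rplp0 (chr5:115559467-115563727) was covered to 7.50% of its promoter at 2-cell and to 0% in the other 9 lists, by a peak of 150 bp from 71 to 220 bp after the 5′ end (fold 3.13, −log10 q 2.46). Rplp1 was covered to 12.3% at 6 hpa and 14.1% at 2-cell and to 0% elsewhere. Its peaks ran from 39 to 285 bp at 6 hpa (fold 2.65) and from 4 to 285 bp at 2-cell (fold 3.24). No peak base lay in the promoter or body of Rplp2 in any list. The 3 stalk genes thus differed from one another at the same stages.

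Small-subunit genes made up 11 of the 18 members marked at 2-cell. Rps23, whose protein sits at the decoding centre, was covered to 21.7% at 2-cell and to 0% elsewhere. Rps20 was covered to 11.8% at 2-cell alone. Rps12, Rps15 and Rps19, each marked at 2-cell alone, had between 7.40% and 8.60% of their promoter bases covered. Rpsa, which encodes the laminin receptor precursor of the small subunit, was covered to 11.9% at 6 hpa and 7.75% at 2-cell, by peaks from 170 to 407 bp (fold 2.64) and from 157 to 311 bp (fold 2.91). At 6 hpa the highest small-subunit value was 43.2% for Rps21, whose peak of 864 bp also overlaps the microRNA gene Mir3091, and Rps21 was marked in no other list.

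Rps3a1 was, besides Rps29, the multi-exon gene marked both in the donor cells and after transfer. Peaks covered 14.9% of its promoter in CC, 12.4% at 6 hpa, 29.6% at 2-cell and 7.25% in TE, and 0% in 14 hpa, 4-cell, 8-cell, morula, ICM and PN5. The peaks at 6 hpa of Rps3a1 and of Rpl27a are printed as examples of what was called, because they hold no annotated UTR of a coding transcript. Both are read on the sense strand, with CpG dinucleotides in capitals.
Rps3a1 (chr3:86142318-86142565, minus strand, end of an exon and the following intron, 137 to 384 bp after the 5′ end): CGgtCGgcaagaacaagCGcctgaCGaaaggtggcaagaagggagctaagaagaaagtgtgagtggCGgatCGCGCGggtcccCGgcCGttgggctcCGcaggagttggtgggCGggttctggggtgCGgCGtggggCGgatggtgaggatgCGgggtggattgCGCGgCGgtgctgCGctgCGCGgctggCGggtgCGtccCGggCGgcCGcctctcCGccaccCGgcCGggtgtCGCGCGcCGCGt
Rpl27a (chr7:109519248-109519525, plus strand, outside the exons of coding transcripts, 101 to 378 bp after the 5′ end): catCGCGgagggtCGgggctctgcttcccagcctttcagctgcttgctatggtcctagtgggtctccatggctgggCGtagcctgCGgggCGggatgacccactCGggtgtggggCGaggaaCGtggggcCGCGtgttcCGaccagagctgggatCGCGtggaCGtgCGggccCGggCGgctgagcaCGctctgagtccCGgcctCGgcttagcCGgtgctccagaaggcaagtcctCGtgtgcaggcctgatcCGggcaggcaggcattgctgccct
The Rps3a1 peak holds 35 CpG in 248 bp with a GC content of 72.6% (fold 2.85, −log10 q 2.45), and the Rpl27a peak 24 CpG in 278 bp with a GC content of 68.7% (fold 2.68, −log10 q 2.00). The lower of these −log10 q values is just below the median of the members' peaks at 6 hpa, 2.10, and the lowest in the list is 1.31.

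Rps29, which encodes a small zinc-binding protein of the small subunit, was marked in more lists than any other member, mostly by a peak upstream of the gene. Coverage of its promoter stood at 13.1% in the CC list, at 13.0% and 14.1% in those of 6 hpa and 14 hpa and at 29.4% in 2-cell embryos, and was 13.1% in 8-cell embryos, 9.95% in morulae, 18.9% in TE, 14.0% in PN5 and 0% in 4-cell embryos and ICM. In CC the peak (chr12:69159314-69159575, 262 bp) lay upstream of the 5′ end, at 2-cell 32.3% of a peak of 588 bp lay in the gene, TE had a second peak inside the gene, and in all 8 lists a peak overlapped Rn7s1, an annotated gene of the 7SL RNA of the signal recognition particle. Such RNA genes have many near-identical copies in the genome, so the reads behind this peak may be shared between copies, which was not tested. No other member was marked in 8-cell embryos or in morulae, so without Rps29 both counts are 0.

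The 8 paralogs, whose symbols end in l, l1 or rt, included the most heavily covered promoters. Rpl10l (chr12, a single-exon retrocopy of the X-linked Rpl10 that is used in male germ cells) had 45.0% of its promoter under peaks in CC, then 49.9% (6 hpa), 57.5% (14 hpa), 54.0% (2-cell), 23.1% (4-cell) and 10.8% (TE), and 0% in 8-cell, morula, ICM and PN5. Its body was covered to 56.5% in CC and 67.9% at 2-cell. Rps27rt, the other single-exon member, was covered to 22.7% at 6 hpa, 8.95% at 14 hpa, 13.7% at 2-cell and 7.15% in PN5 and was not covered in CC. Its whole body was covered at 6 hpa (100%) and 72.7% of it at 2-cell, with the highest fold enrichments of any member at those stages, 5.45 and 5.23. Rps27rt lies within the gene Osbpl10. Both retrocopies resemble their parent mRNAs, so reads may be shared with these and with pseudogenes, and their values are uncertain.

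Rpl39l, a paralog used in the testis, was covered to 12.4% at 6 hpa, 9.15% at 14 hpa, 13.3% in ICM and 29.7% in TE, and was marked in 3 of these lists but not in ICM. Of its body, 47.6% lay under peaks in ICM and 21.3% in TE. Rps27l was covered to 17.8% at 6 hpa alone. Rpl36al, whose 5′ end lies opposite that of Mgat2, was covered to 11.7% at 6 hpa, by a peak that also overlaps Mgat2. In Rpl22l1, Rpl3l and Rpl7l1 no peak base lay in the promoter or body in any list. Without the 8 paralogs the counts were 17 of 73 at 6 hpa (23.3%), 2 at 14 hpa (2.74%) and 16 at 2-cell (21.9%). The 14 hpa count thus rested on 3 paralogs, and the 2-cell count did not.

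The remaining members marked in CC, TE or PN5 were each marked in few lists. Rpl4, whose protein lines the exit tunnel, was covered to 8.60% in CC alone, by a peak from 250 to 79 bp before the 5′ end. Rpl23a was covered to 32% in TE alone. In PN5, Rpl7a was covered to 18.4%, Rpl36 to 8.00% and Rps28 to 6.60%. Rpl36 was also covered to 7.90% at 6 hpa, by another peak. Apart from Rps27rt and Rps29, no member marked in PN5 was marked at 14 hpa.

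At 6 hpa and 2-cell the peaks that marked members were narrow and mostly centred just inside the genes. Their median width was 262 bp at 6 hpa (158 to 998 bp) and 279 bp at 2-cell (148 to 1080 bp), against 531 and 562 bp for the peaks that marked any promoter. The peak centre lay downstream of the 5′ end in 19 of 22 at 6 hpa (86.4%) and in 17 of 18 at 2-cell (94.4%), against 74.6% and 64.7% of the peaks at all promoters. Peaks that marked mitochondrial ribosomal protein promoters (11 and 4) had median widths of 203 and 197 bp, with 72.7% and 100% centred downstream. In the lists with fewer marked members the centre lay downstream in 2 of 4 peaks (CC), 3 of 5 (14 hpa), 2 of 2 (4-cell), 0 of 1 (8-cell and morula each), 5 of 7 (TE) and 3 of 6 (PN5). The median fold enrichment was 2.69 at 6 hpa (2.35 to 5.45) and 3.21 at 2-cell (2.79 to 5.23), against 2.72 and 3.0. The median −log10 q was 2.10 and 3.04, against 2.28 and 2.72. Fold and width of the members' peaks thus show short stretches of moderate enrichment. When only peaks of at least 300 bp counted, an alternative chosen after the data were seen, 8 members remained marked at 6 hpa (9.88%, against 21.4%) and 8 at 2-cell (9.88%, against 4.35%).

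**Figure D3:**
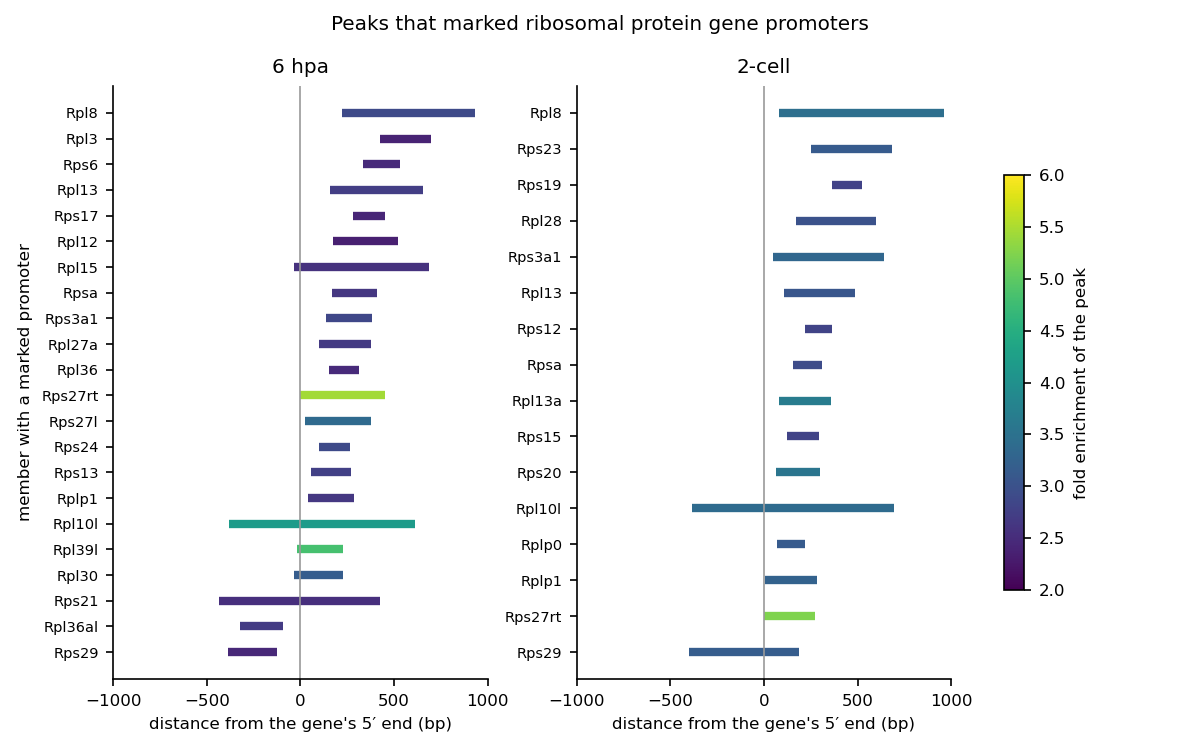
Position of the peaks that marked members at 6 hpa (left) and 2-cell (right), 1 bar per peak from its start to its end in bp from the gene's 5′ end (x axis), 1 row per member, coloured by fold enrichment, with all 22 marked members at 6 hpa and 16 of the 18 at 2-cell shown. Of the peaks, 15 of 22 at 6 hpa and 15 of 18 at 2-cell lay wholly downstream, 5 and 3 ran across the 5′ end, and 2 and 0 lay wholly upstream.

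Summed over the 81 genes, the highest coverage lay in the 50-bp bin centred 225 bp after the 5′ end in both lists, at 19.3% of bases at 6 hpa and 17.4% at 2-cell. In the kilobase before the 5′ end 1.73% of bases were covered at 6 hpa and in the kilobase after it 8.33%, and at 2-cell 0.968% and 7.49%. Over all high-CpG promoters the same stretches were covered to 8.41% and 19.8% at 6 hpa and to 0.948% and 1.74% at 2-cell. In CC the members' highest bin was 225 bp before the 5′ end, at 3.70%. Mean coverage of the members' promoters in CC, 6 hpa, 14 hpa and 2-cell was 1.01%, 5.03%, 1.58% and 4.23%, against 4.39%, 10.8%, 4.08% and 2.60% over all promoters, and the median was 0% in every list for both.

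**Figure D4:**
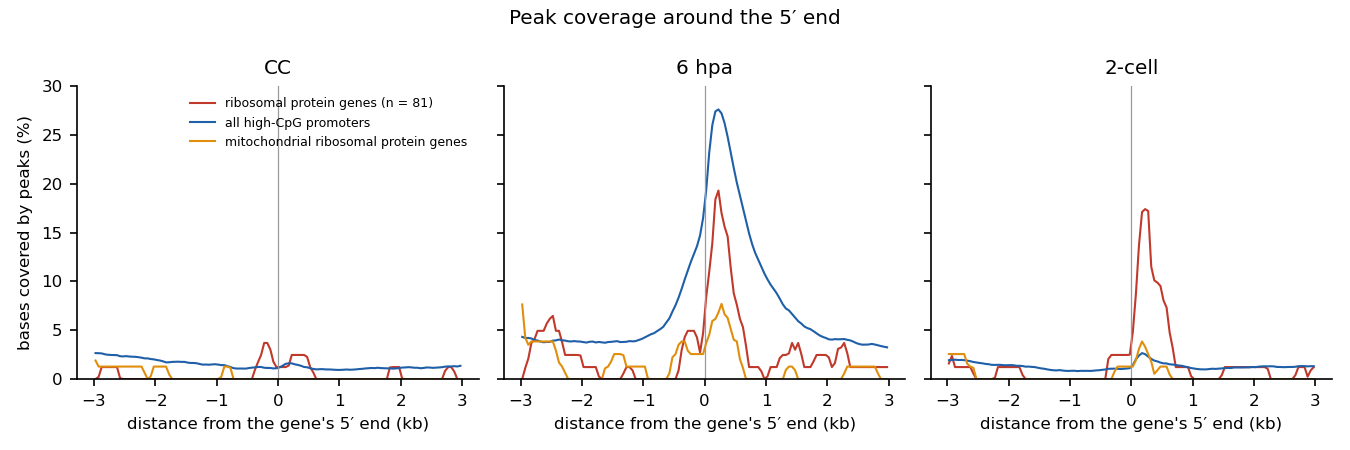
Percent of bases covered by peaks (y axis) by distance from the gene's 5′ end in kb (x axis, 50-bp bins, sense direction to the right) in CC, at 6 hpa and at 2-cell, for the 81 ribosomal protein genes, all high-CpG promoters and the mitochondrial ribosomal protein genes. The ribosomal protein genes peak 225 bp after the 5′ end, at 19.3% at 6 hpa and 17.4% at 2-cell, and the high-CpG promoters reach 27.6% and 2.66%.

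No member reached 50% coverage of its promoter in CC or at 6 hpa, and Rpl10l did at 14 hpa and 2-cell. With 50% coverage by merged peaks as the rule, the counts were therefore 0 at 6 hpa (against 7.18% of all promoters) and 1 at 2-cell (against 1.94%), and the members no longer exceeded the background at 2-cell. The statements on marked members thus concern short peaks within a promoter. With the 5′ end of the best supported coding transcript the 2-cell count was 19, and Rps2, whose annotated 5′ end lies 1994 bp from that of this transcript, was then covered to 38.8% at 6 hpa and 41.9% at 2-cell.

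Gene bodies of members were covered less than those of other genes in most lists. The mean over members started at 1.01% in CC, was 5.82% at 6 hpa, 3.15% at 14 hpa and 4.90% at 2-cell, and then 1.20% (4-cell), 0% (8-cell), 0.0953% (morula), 0.829% (ICM) and 2.23% (TE). PN5 had 3.39%. Over all genes the mean lay between 3.33% in TE and 6.79% at 6 hpa, and at 2-cell it was 3.53%, below that of the members. The 2-cell excess rested on the paralogs, without which the members' mean was 3.52%. With the bases of all bodies pooled, 2.31% of members' bases were covered at 2-cell, against 3.23% over all genes. Without the first 1 kb of each gene the members' mean was 1.89% at 6 hpa and 0.862% at 2-cell, against 5.64% and 3.20% over all genes. The coverage of their bodies at these stages thus came mostly from the first kilobase. In CC the most covered bodies after Rpl10l were those of Rpl23a (7.54%), Rps3a1 (6.26%), Rpl3 (5.72%) and Rpl11 (4.98%).

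In the 79 members with introns, exons of coding transcripts make up 28.4% of the gene length. They held 51.0% of the covered bases at 6 hpa, 56.5% at 14 hpa and 56.7% at 2-cell, against 0.423% in CC. Exons were covered to 4.34% at 6 hpa and 4.08% at 2-cell and introns to 1.66% and 1.24%. Over all genes with introns, exons and introns were covered to 7.36% and 3.96% at 6 hpa and to 3.26% and 3.23% at 2-cell. Because the first exon and the 5′ end lie together, position and exon content cannot be told apart in these sums.

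**Figure D5:**
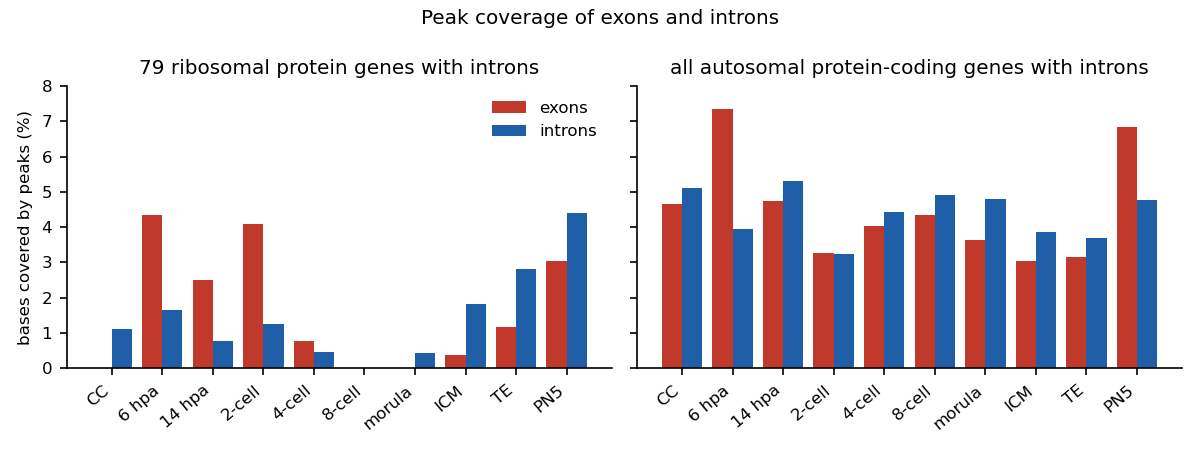
Percent of exonic (red) and intronic (blue) bases covered by peaks (y axis, from 0) in each list (x axis), for the 79 ribosomal protein genes with introns (left) and all autosomal protein-coding genes with introns (right). At 2-cell the members' exons were covered to 4.08% and their introns to 1.24%, against 3.26% and 3.23% over all genes.

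Processed pseudogenes of ribosomal protein genes share the sequence of their exons. Of 265 genes with a ribosomal protein pseudogene symbol, 259 of them annotated as processed, 65 had a marked 5′ end in CC (24.5%), 95 at 6 hpa (35.8%), 78 at 14 hpa (29.4%), 89 at 2-cell (33.6%) and 45 in PN5 (17.0%). Other processed pseudogenes, which are all those without such a symbol, had 22.2%, 28.4%, 24.7%, 20.6% and 14.4% in the same lists. Pseudogenes of ribosomal protein genes that carry other symbols were not removed from this set. With their bases pooled, the bodies of the ribosomal protein pseudogenes were covered to 11.7% in CC and 18.8% at 2-cell. Those of the other processed pseudogenes were covered to 16.9% and 11.9%, so the order in CC was the opposite of that at 2-cell. How reads that fit both a gene and its pseudogenes were placed is not given in the sources used here, and its part in the members' exonic coverage was not tested. Members marked at 2-cell had a median of 1 named pseudogene and the others 2.

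Other genes of translation were set beside the members at 2-cell, where 6.39% of all promoters were marked. Of 78 mitochondrial ribosomal protein genes 4 were marked (5.13%, 2.01% to 12.5%), of 65 translation factor genes 10 (15.4%, 8.58% to 26.1%), of 28 ribosome biogenesis genes 6 (21.4%, 10.2% to 39.5%), and of 18 other genes with TOP mRNAs 3 (16.7%, 5.84% to 39.2%), namely Npm1, Rack1 and Hnrnpa1. The lists share genes, Npm1 and Rack1 among them. At 6 hpa, against 29.9% of all promoters, the counts were 11 (14.1%), 21 (32.3%), 5 (17.9%) and 4 (22.2%). The interval of the mitochondrial ribosomal protein genes at 2-cell lay below that of the cytosolic ones, 14.5% to 32.4%. Those of the translation factor, ribosome biogenesis and other TOP genes overlapped that of the cytosolic ones. A share above that of all promoters at 2-cell was thus not particular to the cytosolic ribosomal protein genes. The intervals cover counting error over promoters only and are not a test between these groups.

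Ribosomal protein genes with other symbols or on the X chromosome were not members. Fau, which encodes a ribosomal protein fused to a ubiquitin-like domain, had no peak base in the promoter in any list. Rack1, a protein of the small subunit, was covered to 9.05% of its promoter at 2-cell alone. On the X chromosome, Rpl39, Rpl10, Rps4x and Rpl36a were covered to 72.8%, 36.9%, 54.8% and 34.8% of the promoter in CC, and all 4 were marked there, whereas 4 of 81 autosomal members were. The share of all X-linked promoters marked in CC was not computed. These genes and their chromosome therefore cannot be told apart in this contrast. At 6 hpa the 4 X-linked genes were covered to 0%, 28.4%, 9.60% and 31.1%, and at 2-cell to 71.8%, 0%, 0% and 23.6%. At 4-cell, 8-cell, morula and ICM and in PN5 each of the 4 was at 0%.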

How the data were processed

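The authors trimmed reads with Cutadapt 1.16, aligned them to mm10 with BWA mem, removed duplicates and drew equal read numbers per group with Picard, and called broad peaks over input with MACS2 on pooled replicates. The MACS2 version and threshold are not given in the sources used here. Each deposited peak carries a fold enrichment, a ratio over input, and a −log10 q value, both computed by the authors' peak caller. Read depths of single libraries are not in the lists, and a promoter without a peak was not detected as marked rather than shown to lack the mark.

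Overlapping peaks were merged, and genes were taken from GENCODE M21 and sequences from GRCm38.p6, with Python 3.11.15, NumPy 2.4.6 and SciPy 1.17.1. Coordinates are 1-based. The high-CpG class holds promoters with a 500-bp window of CpG ratio of at least 0.75 and GC content of at least 55%. Coverage and marking were tested against a base-by-base count on simulated intervals. Named were the 10 members of highest promoter coverage at 6 hpa, those marked in CC, PN5, 4 or more lists or any list from 2-cell on (12 of a class at most), the most covered bodies, the stalk genes and Rpsa. Members and lists were chosen with earlier results of these data known. The alternatives were a stricter −log10 q, lists of equal length, other promoter widths, 5′ ends and overlap rules, and members left out. Some items are not reported here by name, although the counts include them.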

Additional observations from a re-analysis of the deposited data

How the results depend on the processing

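No paired analysis was possible because each group was deposited as 1 list made from all its libraries, which also leaves no library to leave out. Of 135 recomputed counts, 93 stayed within 1.5 times their value and 42 did not. Of 90 mean coverages 81 stayed within a Wilson interval that takes 1 kb as 1 unit. With 50% coverage by merged peaks as the rule, the counts were 0 for CC, 6 hpa, 4-cell, 8-cell, morula and TE and for every class of gain, loss and sharing, and 1 for 14 hpa, 2-cell and PN5. With any peak base counted, the ICM count was 1, and with the best supported transcript's 5′ end 2. With −log10 q of at least 2, the 4-cell count was 1 and the PN5 count 3, and the PN5 body mean 1.56%. With all lists trimmed to 123 Mb, CC had 2, 4-cell 1 and TE 3 marked members, 1 was kept from CC to 6 hpa, 1 was shared by 14 hpa and PN5, and the means were 0.268% (CC promoters), 0.0726% (CC bodies) and 0.268% (ICM bodies). With promoters of 500 bp either side, 14 hpa had 3, 4-cell 1, and 6 hpa and 14 hpa shared 3. Without paralogs, 14 hpa had 2, 4-cell 1, 6 hpa and 14 hpa shared 2, 14 hpa and PN5 shared 1, and body means were 0.348% (CC) and 0.268% (ICM). Without the first 1 kb, body means were 0.309% (CC), 1.89% (6 hpa) and 0.862% (2-cell). Chosen after seeing the data, leaving out the single-exon members gave 3 at 14 hpa and 1 at 4-cell, leaving out Rps29 gave 0 at 8-cell and in morula, and peaks of at least 300 bp gave 1 in CC, 8 at 6 hpa, 2 at 14 hpa, 8 at 2-cell, 0 at 8-cell and in morula, 3 in TE and 2 in PN5. The causes of these shifts were not tested beyond the fewer peaks, bases or genes that each alternative keeps. The 2-cell count lay between 15 and 19 under the 8 alternatives other than the 50% coverage rule and the 300-bp minimum, against 4.83% to 7.79% of all promoters.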

Other observations

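At 2-cell, peak coverage of the ribosomal protein genes was counted in the first kilobase of each gene (7.49%), and the mitochondrial ribosomal protein genes, which encode the separate ribosome of mitochondria and lack TOP mRNAs, had 1.18% there. At 6 hpa the values were 8.33% and 3.20%. In PN5 the order was the opposite, with 1.03% for the cytosolic and 2.07% for the mitochondrial set. In PN5 the members' covered bases lay mostly outside the first kilobase, and the most covered bodies were those of Rps27rt (38.2%), Rpl22 (34.5%), Rps3 (28.8%) and Rpl10a (28.1%), of which only Rps27rt was marked at its promoter. Genes chosen here were named after their values were seen.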
